A study of Mus musculus with 12 samples.

Results

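The comparison described here sets Mtr4-null against wild-type (WT) germinal vesicle oocytes of mice at day 21, gene by gene. It covers 11748 of the 23235 gene symbols in the deposited table. These are the genes whose FPKM (fragment counts divided by transcript length and by library size) averaged at least 1 over the 4 group columns, with microRNA, small nucleolar, small Cajal body and small nuclear RNA loci left out. Asl and Ralgapa2 lay just inside that limit, at 0.854 and 0.706 FPKM in the WT and 1.40 and 0.618 FPKM in the Mtr4-null column of day 21. Ntf3 and Epha7 lay just outside it, with 1.19 and 1.11 FPKM in WT and 1.11 and 0.801 FPKM in Mtr4-null oocytes.

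The study profiled polyadenylated RNA of oocytes from ovaries of female mice in 4 groups: WT and Mtr4-null at day 14, called growing, and WT and Mtr4-null at day 21, the germinal vesicle (GV) stage. Each label stands for a pool of 10 oocytes, with 3 labels per group, sequenced by the Smart-seq2 protocol, which covers whole transcripts and loses their strand. The sources used here give no mouse strain, no Cre driver and no account of which part of the gene was removed. The table gives 1 value per gene and group, the authors' mean, so no replicate spread, interval or p-value can be given for any value below, and depth is unknown. Differences are those of log2(FPKM + 1), Mtr4-null minus WT, minus the median of that difference over all genes. A gene is called higher (it rose) or lower (it fell) when it is at least 2-fold from that median, which is a rule of size and not a test.

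MTR4 is the RNA helicase that unwinds nuclear transcripts and threads them into the RNA exosome, the complex that trims and degrades RNA from the 3′ end. With adaptor proteins that recognise nascent, unspliced, short or adenylated nuclear RNA, it removes promoter-upstream transcripts and many long non-coding RNAs and finishes the ends of ribosomal and small nucleolar RNAs. A GV oocyte at the end of growth falls nearly silent in transcription and lives on messenger RNA stored while it grew.

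The targeted gene was low in both Mtr4-null columns. Skiv2l2, the older symbol of Mtrex, stood at 27.6 FPKM at day 14 and 26.25 at day 21 in WT oocytes, and at 1.57 and 3.86 FPKM in Mtr4-null ones. Its difference at day 21 was -2.20. All 12 oocyte markers were measured, among them Gdf9 at 4054 FPKM in WT and 1972 in Mtr4-null oocytes. Of 17 granulosa and cumulus markers 11 were under 1 FPKM in both day 21 columns, Ptx3 at 0, and the 17 summed to 195 FPKM in WT and 109.9 in Mtr4-null oocytes. For theca, stromal, endothelial and blood markers, 19 of 22 were under 1 FPKM in both, with Emr1, Hba-a1, Hbb-b1, Lum and Lyz2 at 0, and the sums were 28.1 and 6.39 FPKM.

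The day 21 transcriptome of Mtr4-null oocytes differed widely from that of WT, and the largest differences were mostly upward. Relative to the median, 2854 of 11748 genes (24.3%) were higher and 2079 (17.7%) lower in Mtr4-null oocytes. At 4-fold or more, 1378 genes (11.7%) were higher and 325 lower, and at 32-fold or more 174 were higher and 1 lower. Since 1 is added to each value, a gene low in WT cannot fall far, while a rise has no such limit. Counts of rises and falls are therefore not like for like. The middle 50% of genes lay between -0.74 and 0.96, and the SD over genes was 1.54. The median itself lay at -0.29 before it was subtracted, a 0.817-fold level in Mtr4-null oocytes. Without subtracting it, 2327 genes were higher and 3048 lower, so the higher share of called genes was 43.3% in place of 57.9%. With no filter on low values it was 46.5%, from 2704 higher and 3105 lower genes.

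The same genes were compared at day 14, in columns that enter the day 21 comparison only through the filter on low values. At that age 791 genes (6.73%) were higher and 188 (1.6%) lower, and the SD over genes was 0.68. Of the 791, 749 (94.7%) were also higher at day 21 and none was lower. Of the 188, 162 (86.2%) were also lower at day 21 and 5 were higher. The genes higher at day 14 had a median difference of 1.54 there and 3.22 at day 21, and 705 of 791 lay farther from the median at day 21. For those lower at day 14 the medians were -1.22 and -1.94. Genes called at day 21 alone made up 2100 (73.6%) of the higher and 1917 (92.2%) of the lower ones. Across the 11748 genes, which are not independent replicates, the differences at the 2 ages had a Pearson r of 0.79 and a Spearman rho of 0.70. Age and the number of libraries averaged cannot be told apart here, since the Mtr4-null day 21 column carries decimals of a mean of 2 and the others those of a mean of 3.

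**Figure D1:**
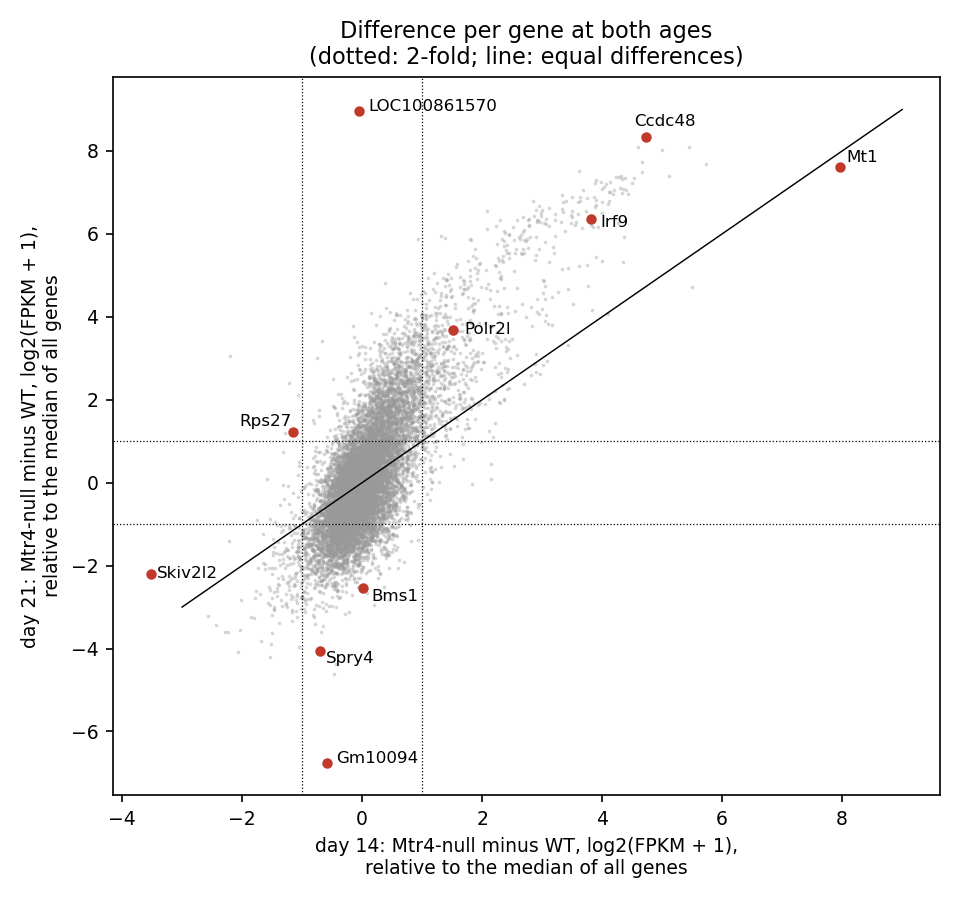
Each grey point is 1 of 11748 genes. The horizontal axis is the Mtr4-null minus WT difference at day 14 and the vertical axis that at day 21, both on the log2(FPKM + 1) scale relative to the median of all genes. Dotted lines mark 2-fold, the solid line equal differences, and red points the named genes. Most rising genes lie above the solid line, while Mt1 lies close to it with 7.97 at day 14 and 7.63 at day 21.

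The 30 largest rises among genes reaching 20 FPKM were mostly low in WT and high in Mtr4-null oocytes. Their WT day 21 levels had a median of 7.81 FPKM, and their Mtr4-null levels ran from 212 to 9623 FPKM. Of them 18 were protein-coding, 7 long non-coding and 3 pseudogenes, 29 were also higher at day 14, and the Mtr4-null level at day 21 was a median of 9.14 times that at day 14. The long non-coding A330069E16Rik stood at 50.2 FPKM at day 14 and 71.0 at day 21 in WT oocytes, and at 1108 and 9623 FPKM in Mtr4-null ones at these ages. That last value was the highest of any compared gene in its column, and the Mtr4-null columns lay far above both WT columns. AI506816, also long non-coding, stood at 9.31 and 11.1 FPKM in the WT columns and at 462 and 2710 in the Mtr4-null ones.

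Several rising genes encode proteins with known roles outside oocyte growth. Dclre1c encodes Artemis, a nuclease of V(D)J recombination and DNA end joining, and stood at 20.9 FPKM at day 14 and 25.4 at day 21 in WT oocytes, and at 507 and 3254 FPKM in Mtr4-null ones at these ages. Irak1, a kinase of interleukin-1 and Toll-like receptor signalling, stood at 3.50 and 5.86 FPKM in the WT columns and at 77.1 and 823 in the Mtr4-null ones. Nanog, a pluripotency factor of the early embryo, stood at 3.23 and 4.67 FPKM in the WT columns and 91.7 and 615 in the others. For all 3 the WT columns were close together and the Mtr4-null day 21 column was the highest. Loxl2, a lysyl oxidase of the extracellular matrix, was 7.05 FPKM in WT and 1089 in Mtr4-null oocytes at day 21, and the chemokine receptor gene Cxcr2 9.74 and 1232. Slfn5, a Schlafen family gene, was 13.5 and 1642 FPKM. The leading protein-coding rise, Ccdc48 (now Efcc1), was 1.33 and 617 FPKM.

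Other large rises differed from this pattern in time or level. Mt1, a metallothionein that binds zinc and copper, stood at 1.48 FPKM at day 14 and 1.77 at day 21 in WT oocytes, and at 640.5 and 446 FPKM in Mtr4-null ones at these ages. Its difference was 7.97 at day 14 already, and the later Mtr4-null value was the lower one. Both WT columns list 0 for Rmrp, the RNA component of RNase MRP, which cleaves ribosomal RNA precursors, and the Mtr4-null columns give 32.1 FPKM at day 14 and 212 at day 21. LOC100861570, which matched no reference gene, was listed at 0 in the other 3 columns and at 406 FPKM in Mtr4-null day 21. Of the 28 named rises found in GENCODE, 21 overlap another gene there, and these libraries carry no strand, so reads of the shared stretch may count for either gene. Across all genes 6402 overlap another, 5156 of them on the opposite strand.

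**Figure D2:**
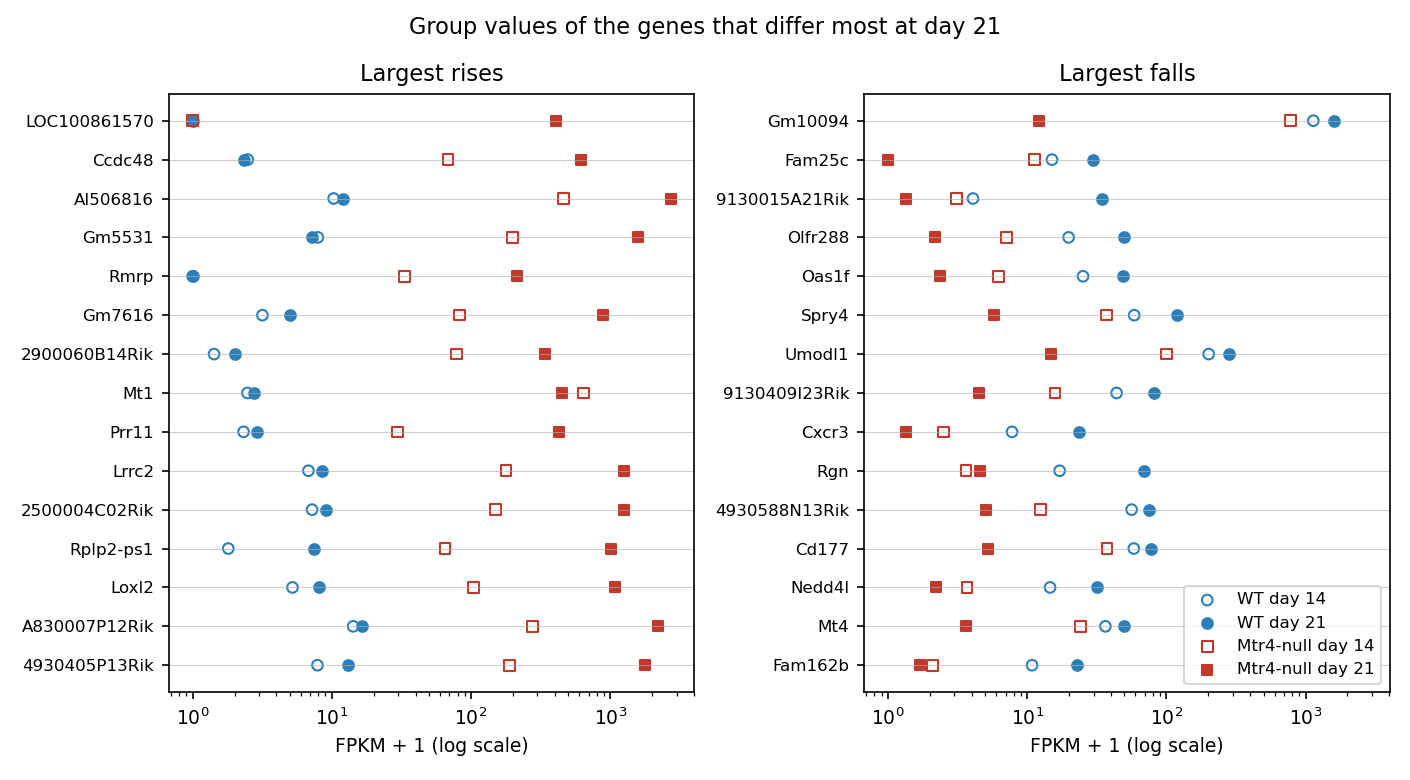
Group values of the 15 largest rises (left) and the 15 largest falls (right) at day 21. The horizontal axis is FPKM + 1 on a log scale, blue circles are WT and red squares Mtr4-null, open symbols day 14 and filled symbols day 21. Among the rises the filled red squares lie to the right, apart from Mt1, whose day 14 square is farther right. Among the falls they lie to the left, apart from Rgn, whose day 14 square is farther left.

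The 30 largest falls were moderately expressed genes, with a median of 45.1 FPKM in WT day 21. Of them 24 were protein-coding and 4 long non-coding, 17 were also lower at day 14, and the Mtr4-null level at day 21 was a median of 0.187 times that at day 14. Spry4, a Sprouty inhibitor of receptor tyrosine kinase signalling, stood at 57.8 FPKM at day 14 and 117 at day 21 in WT oocytes, and at 36.3 and 4.82 FPKM in Mtr4-null ones at these ages. Spire1, which nucleates the actin mesh that positions the meiotic spindle, stood at 38.6 and 66.1 FPKM in the WT columns and at 22.6 and 5.59 in the Mtr4-null ones. In both genes the WT level was higher at day 21 than at day 14 and the Mtr4-null level lower. Oas1f, an oocyte member of the oligoadenylate synthetase family, was 47.8 FPKM in WT and 1.36 in Mtr4-null oocytes at day 21. Rgn, a calcium-binding protein gene, was 67.8 and 3.61 FPKM, Umodl1 282 and 13.8, and Upp1, a uridine phosphorylase, 219 and 19.6. Nedd4l, a ubiquitin ligase, was 31.0 and 1.23 FPKM, and Fam25c was 28.75 FPKM in WT and listed at 0 in Mtr4-null oocytes.

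The largest fall was in one of 2 near copies. Gm10094, now Sap18b, is a single-exon copy of Sap18, a subunit of histone deacetylase and exon junction complexes. It stood at 1136 FPKM at day 14 and 1592 at day 21 in WT oocytes, and at 781 and 11.1 FPKM in Mtr4-null ones at these ages. Sap18 itself moved the other way, with 7.87 and 12.2 FPKM in the WT columns and 110.4 and 970 in the Mtr4-null ones. Summed over both genes the levels were 1144 and 1604 FPKM in WT and 892 and 981 in Mtr4-null oocytes, and the sum differed by -0.42 at day 21, which is not called. No source used here says how reads that match both copies were shared out, which leaves the split between these genes uncertain.

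A sequence was shared by many of the strongest rises. All runs of 20 bases were listed in the GENCODE transcripts of the 100 genes with the largest rise at day 14, and the run most frequent in them relative to the other genes was kept. It was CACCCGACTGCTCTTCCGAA, present without a change in 12 of the 100 and in 43 of 11471 other genes (0.375%). The run belongs to B2, a family of short interspersed elements that RNA polymerase III transcribes and that lie in many copies in mouse introns and 3′ untranslated regions (UTRs). The run was then looked for in all transcripts on both strands, its reverse complement being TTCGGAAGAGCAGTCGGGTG, with up to 2 edits. Genes of the 30 largest rises or close behind them are shown to set the same run side by side in genes of different functions. Each line gives the run with 5 bases on either side, 5′ to 3′, from the first GENCODE transcript of the gene that holds it (GRCm38, the strand of the gene). Capitals mark bases that match the run, and a lower-case base inside it differs.
Loxl2: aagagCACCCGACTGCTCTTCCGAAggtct
Tapbpl: aagagCACCCGACTGCTCTTCCGAAgatct
Slfn5: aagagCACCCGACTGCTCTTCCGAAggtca
Mpv17l: aggagCACCCGACTGCTCTTCCGAAggtcc
Rin1: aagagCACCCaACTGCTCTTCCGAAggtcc
Sap18: aagagCACCCGAtTGCTCTTCCGtAggtcc

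Where the B2 run lay in the 3′ UTR of a protein-coding transcript, most genes were higher in Mtr4-null oocytes at day 21. Of 66 such genes 46 (69.7%) were higher and 0 lower, beside 24.3% and 17.7% of all genes, and the median difference was 5.08. At 4-fold or more 42 (63.6%) were higher, beside 11.7% of all genes. The run was chosen in genes that rose at day 14, most of which also rose at day 21, so these counts describe the genes and are no independent support. Outside the 100 genes in which it was chosen, 22 of 42 (52.4%) were higher and 0 lower at day 21, and their median was 1.21. Together the 66 genes summed to 2526 FPKM at day 14 and 2327 at day 21 in WT oocytes, and to 6378 and 38060 FPKM in Mtr4-null ones. Among them were Nip7, a factor of 60S ribosomal subunit maturation, at 46.7 FPKM in WT and 4602 in Mtr4-null oocytes, and Exosc2, a cap subunit of the exosome itself, at 20.9 and 913. Luc7l2, a splicing factor of the U1 particle, was 12.85 and 1242 FPKM, Bcas2, a subunit of the PRP19 splicing complex, 45.7 and 1327, and Polr2l, a subunit shared by the RNA polymerases, 171 and 1803. The other 20 lay within 2-fold of the median, such as Slbp, which binds the histone stem-loop, at 1156 and 581 FPKM with a difference of -0.70, and Samhd1, a dNTP hydrolase, at 18.1 and 8.08 FPKM with -0.78.

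These counts differed with the place of the run. Transcripts not classed as protein-coding, such as retained introns or non-coding RNAs, were kept together, without a search for coding sequence. In 91 genes the run lay only in such transcripts. Of those 21 (23.1%) were higher and 20 (22.0%) lower, near the shares of all genes, with a median of -0.06. The shares were also taken at 2 levels of WT day 21. That column is part of the comparison itself, so sorting on it shifts the shares of all genes. The genes in which the run was chosen were kept in, so these shares are no independent support. With at least 10 FPKM in WT day 21, 21 of 32 genes with a 3′ UTR run (65.6%) were higher, against 8.84% of all protein-coding genes at that level. Under 10 FPKM the shares were 73.5% of 34 genes and 36.2%. Antisense runs in 3′ UTRs gave 23 higher and 1 lower of 34 genes, and their median was 3.07. Of these, 6 of the 13 genes with at least 10 FPKM (46%) were higher, with a median of 0.40 there. Under 10 FPKM 17 of 21 genes (81%) were higher, with a median of 5.54.

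Other runs were set beside it. A second B2 run, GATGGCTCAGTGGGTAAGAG, was the most frequent one in the same 100 genes (22 of them) among runs held by at most 1% of the others. In 3′ UTRs it was found in 244 genes, of which 142 (58.2%) were higher and 12 lower, and their median was 1.57. It too was chosen in genes that rose at day 14, so these counts are no independent support. Its last 5 bases are those that stand before the first run in most lines shown above. Both runs may thus be neighbouring parts of the same B2 copies, which was not tested. Only in transcripts not classed as protein-coding the second run was found in 351 genes, of which 68 (19.4%) were higher. The run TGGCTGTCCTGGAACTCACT, the most common in a sample of 1158 genes (held by 52) and part of the B1 element family, lay in the 3′ UTR of 535 genes. Of these 178 (33.3%) were higher and 76 lower, and their median was 0.35. With at least 10 FPKM in WT day 21, 24 of 229 (10.5%) were higher. This run was chosen for how common it was and not in rising genes, so the shares of the runs are not like for like. Among the 30 largest rises 11 genes held the first B2 run in sense and 5 in antisense, and none of the 30 largest falls held either. Of all genes with a transcript sequence 1.37% held it in sense and 1.36% in antisense. Since the run was chosen in the day 14 rises and 29 of these 30 genes were higher at day 14, nothing is read from their count. No source used here says where the authors' alignment placed reads that match many copies, and its part in these levels was not tested.

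**Figure D3:**
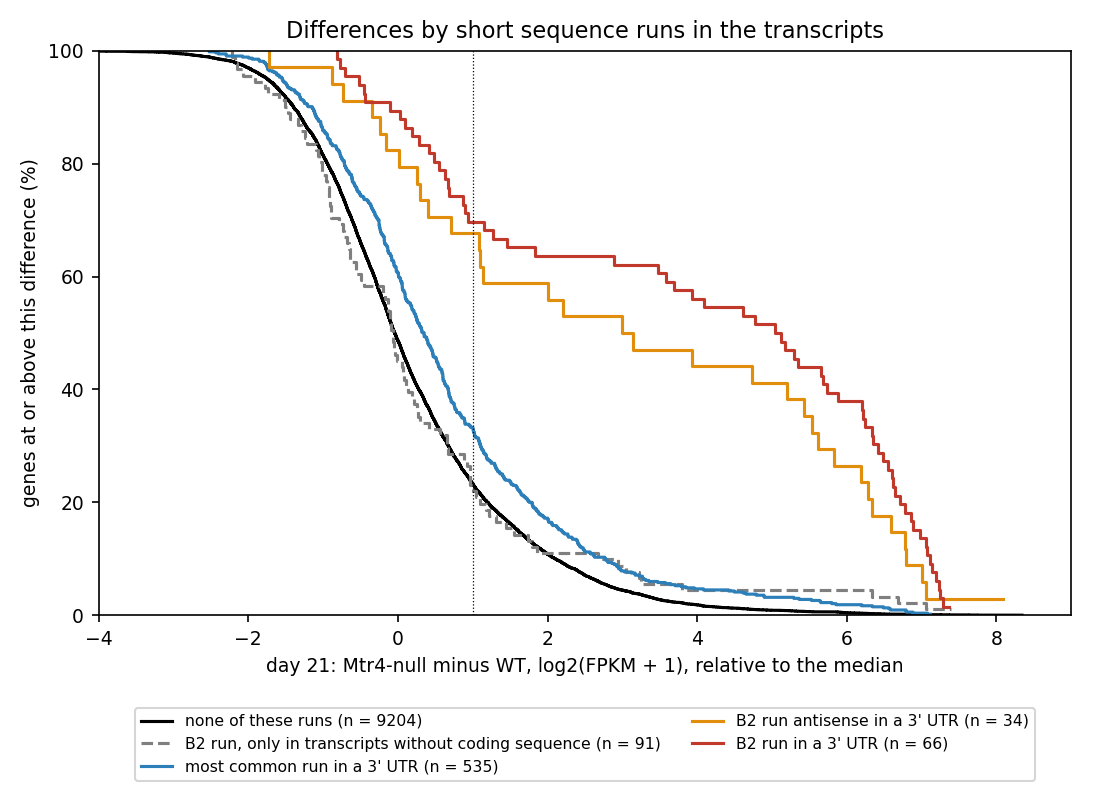
For each set of genes the curve gives the percentage of genes at or above the day 21 difference on the horizontal axis, Mtr4-null minus WT on the log2(FPKM + 1) scale relative to the median of all genes. At the dotted line (2-fold) the red curve, 66 genes with the B2 run in a 3′ UTR, stands at 69.7%. The dashed curve, 91 genes with it only in transcripts not classed as protein-coding, stands at 23.1%. Its label calls these transcripts without coding sequence.

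Gene classes and gene structure went with the direction of the difference. Of 586 long non-coding genes, by RefSeq class, 366 (62.5%) were higher and 68 lower. Their median was 1.70, and their share of the FPKM of all compared genes was 1.82% in WT and 7.89% in Mtr4-null oocytes. Of 123 pseudogenes 54 were higher and 11 lower. For the 10928 protein-coding genes the counts were 2397 and 1979, and their median was -0.05. With at least 1 FPKM required in both WT columns the long non-coding median was 0.72, since genes silent in WT pass the filter through their Mtr4-null values. Chromosome medians lay between -0.19 on chromosome 12 and 0.14 on chromosome 17, with 0.06 on the X chromosome.

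Among protein-coding genes, those with few exons and a short span leaned higher and long genes with many exons leaned lower. Exons were counted in the longest GENCODE transcript of each gene, so 1 exon there does not mean a gene without introns. Of 600 genes with 1 exon 36.3% were higher and 12.5% lower, while of 788 with 25 or more exons 8.12% were higher and 26.8% lower. By gene span, 42.3% of the 579 genes up to 3 kb were higher, against 9.89% of the 283 over 300 kb, of which 32.9% were lower. Transcript length alone showed a smaller range, with 25.1% higher in the shortest class and 16.9% in the longest. Genes with up to 4 exons were higher in 32.5% of cases both below 2000 and above 4000 bases of transcript. At day 14 the medians by exon number lay between 0.13 and -0.09, a narrower range than the 0.46 to -0.50 at day 21.

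**Figure D4:**
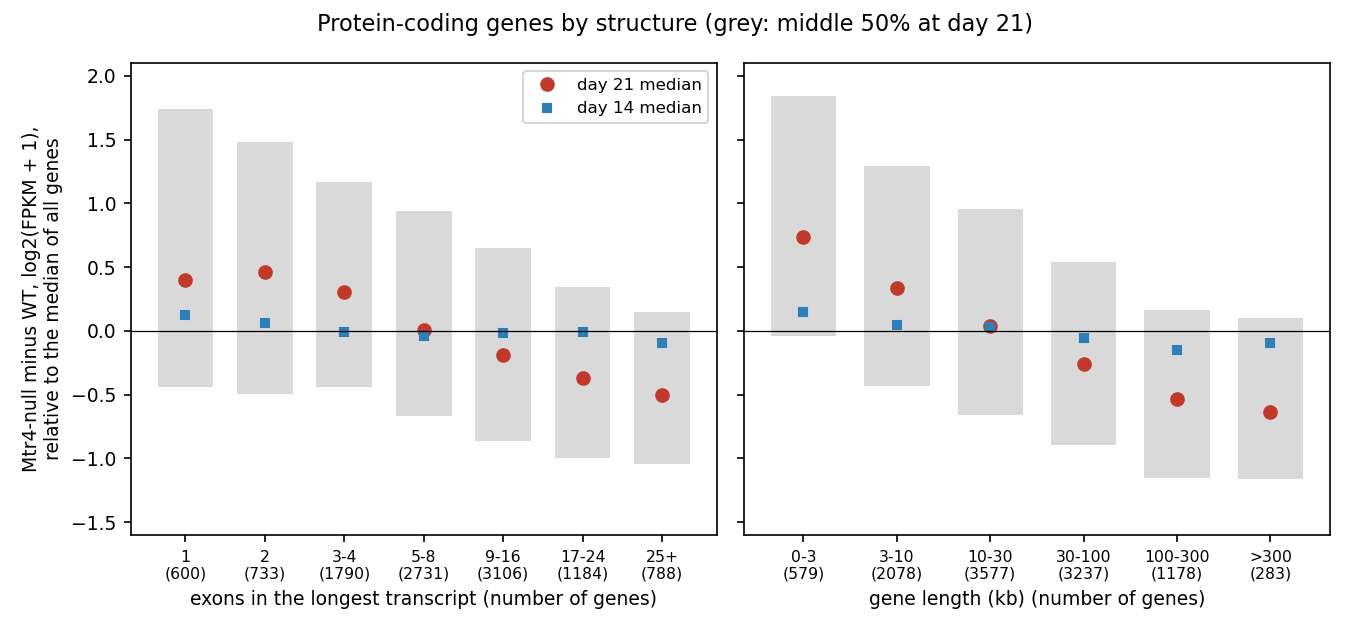
Protein-coding genes are grouped by the number of exons in the longest transcript (left) and gene length in kb (right). The number of genes is in brackets. The vertical axis is the Mtr4-null minus WT difference on the log2(FPKM + 1) scale relative to the median of all genes. Red points are day 21 medians, blue squares day 14 medians and grey bars the middle 50% of genes at day 21. The red points descend from 0.74 in genes up to 3 kb to -0.63 in those over 300 kb.

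The day 21 differences also varied with the level in WT day 14, a column that enters the comparison only through the filter on low values. The 347 genes above 0 and up to 0.5 FPKM there were higher in 94.2% of cases. A gene that low passes the filter only through other columns. If it is also low in WT day 21 it can hardly be called lower, so nothing is read from this share. From above 5 to 20 FPKM 21.2% were higher and 20.7% lower. Above 100 FPKM 4.44% of 1171 genes were higher and 281 genes lower. Tlcd2, a lipid-remodelling gene and among the most abundant WT transcripts, stood at 4097 FPKM at day 14 and 4236 at day 21 in WT oocytes, and at 1977 and 483 FPKM in Mtr4-null ones at these ages. Gm813 followed with 2561 and 3051 FPKM in the WT columns and 1525 and 429.6 in the Mtr4-null ones. In both, the Mtr4-null column was the lower one at each age.

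The machinery that works with MTR4 did not move as a group. Of 14 measured exosome subunits and nucleases 3 were higher (21.4%) and 1 lower (7.14%), beside 24.3% and 17.7% of all genes. Their median was 0.01. Exosc2 and Exosc6, from the cap and the ring, and C1d, a nuclear cofactor, rose, the latter pair from 2.34 to 19.98 and from 5.66 to 20.9 FPKM. Dis3l, a cytoplasmic exosome nuclease, fell from 52.1 to 10.2 FPKM. Of 16 genes of MTR4 and its adaptor complexes 2 rose (12.5%) and 1 fell (6.25%). The rises were 1200014J11Rik (now Ncbp3), which binds the messenger RNA cap in the nucleus, from 15.6 to 675 FPKM, and Ncbp1 from 4.23 to 16.9. Skiv2l2 itself was the 1 that fell.

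Neighbouring steps of RNA processing held rises and falls, several of them near the 24.3% higher and 17.7% lower of all genes. Of 23 cleavage and polyadenylation genes 7 rose and 3 fell. Clp1, an RNA kinase of the cleavage complex, rose from 5.11 to 106 FPKM and Nudt21, a regulator of poly(A) site choice, from 52.3 to 156, while Pabpc1l, the embryonic poly(A)-binding protein gene, fell from 154 to 39.1. Among 49 splicing factors 12 rose (24.5%) and 4 fell, the latter with Sf3b1 (58.7 to 16.6 FPKM) and Sf3b2 (34.25 to 8.57). Cytoplasmic decay genes gave 5 rises and 4 falls of 20, with Wdr61 rising from 26.8 to 198 FPKM and Edc4, a decapping scaffold, falling from 43.0 to 9.72. In ribosome biogenesis 10 of 49 rose and 8 fell, with Bms1, a GTPase of the small subunit, at 82.3 and 10.65 FPKM.

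Lists of RNAs that nuclear decay is known to act on held more rises than falls, and the cause was not tested. All 19 measured non-coding snoRNA host genes, whose introns carry small nucleolar RNAs, were higher, with a median of 3.53. Some pass the filter only through their Mtr4-null values, and the 11 with at least 1 FPKM in both WT columns, which were all higher, had a median of 2.15. Snhg3 rose from 5.85 to 693 FPKM, Snhg9 from 27.6 to 1017 and Gas5 from 5.98 to 21.8. Of 7 nuclear and imprinted long non-coding RNAs 4 rose and 1 fell (2 and 1 of 4 with that WT level): Malat1, of nuclear speckles, rose from 2.08 to 83.4 FPKM, and Pvt1 fell from 15.9 to 1.85. Of 27 replication-dependent histone genes, whose messages normally lack a poly(A) tail, 19 rose and 0 fell, with a median of 1.74. With that WT level 10 of 15 rose, with a median of 1.89. Hist4h4 rose from 1.23 to 56.9 FPKM, and histone genes have near-identical copies among which reads may be split. Without subtracting the median, 18 of 19 snoRNA hosts and 17 of 27 histone genes were higher and 1 histone gene was lower.

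Among transcripts stored for the egg and embryo the maternal effect and secreted factor lists held more lower genes than the 17.7% of all genes. Abundant genes in general also lay lower, since 281 of the 1171 genes above 100 FPKM in WT day 14 were lower, with a median of -0.36. Of 28 maternal effect genes, needed in the egg for early cleavage, 11 fell (39.3%) and 2 rose, with a median of -0.65. Zar1, a binder of stored messages, fell from 1151 to 205 FPKM, Npm2, a histone chaperone, from 1308 to 309, and Sall4 from 123 to 24.1. Of 13 secreted factors and receptors 5 fell (38.5%) and 0 rose, with a median of -0.94. Among them Tgfb2 stood at 159.5 and 28.3 FPKM, Fgf8, which drives glycolysis in cumulus cells, at 124 and 22.2, Bmp6 at 23.6 and 6.56, and Kit, the receptor of Kit ligand, at 85.2 and 29.7. Gdf9 had a difference of -0.75 and is not called. In the subcortical maternal complex list 1 of 9 fell (11.1%, below the share of all genes), Nlrp2, from 191 to 27.3 FPKM.

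Several other oocyte gene groups had negative medians, as had abundant genes in general. Among 25 oocyte transcription factors 9 fell (36.0%) and 4 rose, with Nobox falling from 541 to 162.5 FPKM and Sohlh1, a factor of early follicles, rising from 0.662 to 5.48. Maternal message storage gave 7 falls and 5 rises of 28, a share near that of the abundant genes: Cpeb1, which controls cytoplasmic polyadenylation, fell from 322 to 95.4 FPKM, and Dazl rose from 377 to 660.2. Of the Oogenesin, Tcl1 and Fbxw multicopy families 15 of 31 fell (48.4%) and 1 rose, with Fbxw16 at 1279 and 150.3 FPKM and Oog4 at 911 and 108, although reads may be split among such close copies. In the piRNA list 7 of 22 fell (31.8%), such as Gtsf1 from 901 to 317 FPKM, and 3 rose, such as Ddx4 from 49.0 to 134. Two-cell stage genes, by contrast, gave 7 rises and 2 falls of 10: Zscan4d rose from 4.39 to 30.6 FPKM and Zscan4c from 0.804 to 17.2. Some of these pass the filter only through their Mtr4-null values, and with at least 1 FPKM in both WT columns 3 of 6 rose and 2 fell, with a median of 0.97 in place of 2.52.

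Meiotic and spindle lists lay on both sides of the 17.7% of all genes that were lower. In the kinetochore and checkpoint list 11 of 38 fell (28.9%) and 5 rose, with Ttk, the checkpoint kinase MPS1, falling from 127 to 23.99 FPKM, Spc25 from 155 to 34.3, and Sgol2, the protector of centromeric cohesion, rising from 18.9 to 493. Of 41 spindle genes 9 fell (22.0%) and 4 rose: Kif23, a kinesin of the midzone, fell from 213 to 30.55 FPKM and Tubb2a from 328 to 71.5. Of 32 cyclin and anaphase-promoting complex genes 3 fell (9.38%) and 1 rose, with Ccnb3 falling from 13.6 to 0.483 FPKM and Plk1 from 135 to 24.3. Meiotic arrest genes gave 2 falls (9.52%) and 0 rises of 21, though their median was -0.57. Among cohesin and axis genes 6 of 32 rose and 3 fell, with the recombinase Dmc1 rising from 3.72 to 61.1 FPKM and Smc4, of condensin, falling from 202 to 42.1.

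Genome maintenance and chromatin genes went in both directions. DNA damage and repair was the list with the most falls among these, 13 of 41 (31.7%, beside 17.7% of all genes), against 5 rises, with a median of -0.59. Brca1 fell from 11.9 to 1.07 FPKM, Brca2 from 18.8 to 3.91 and Msh6, of mismatch repair, from 45.4 to 13.4. The rises included Dclre1c and Dclre1b, the latter from 0.844 to 9.81 FPKM. In DNA methylation 5 of 20 fell, among them the de novo methyltransferase Dnmt3a (22.1 to 2.82 FPKM), its partner Dnmt3l (140 to 25.9) and Dnmt1 (262 to 100.3), and 2 rose. Histone modifiers gave 10 rises and 11 falls of 47, with Suv420h1, an H4K20 methyltransferase, rising from 3.38 to 209 FPKM and Ezh2, of Polycomb, falling from 144 to 25.6. Chromatin remodelling gave 8 rises and 10 falls of 41, with the variant histone H2afz rising from 89.6 to 765 FPKM and Chaf1a, a histone chaperone, falling from 76.2 to 14.1.

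Stress and death lists held between 13.6% and 33.3% of higher genes, beside 24.3% of all genes. The lower ones made up between 7.69% and 23.8%, beside 17.7%. Of 22 heat shock and chaperone genes 3 rose (13.6%) and 4 fell. Of 18 p53 pathway genes 6 rose and 3 fell: Mdm4, an inhibitor of p53, fell from 578 to 98.5 FPKM, and Tnfrsf10b, a death receptor, rose from 0.253 to 5.07. In the BCL2 family and caspases 4 of 13 rose, such as Bad from 2.32 to 14.95 FPKM, and 1 fell, Bcl2l1, from 82.9 to 30.8. Of 24 unfolded protein response genes 4 rose and 3 fell, with Xbp1 rising from 2.57 to 44.7 FPKM and Calr, a lumenal chaperone, falling from 274 to 95.7. In the integrated stress response Chac1 rose from 3.36 to 12.95 FPKM and Ddit4 fell from 8.85 to 0.417, with 5 rises and 3 falls of 17. Metal and oxidative stress genes gave 5 rises and 2 falls of 20, with Ftl1, ferritin light chain, rising from 69.7 to 352 FPKM beside Mt1. Of 21 interferon and double-stranded RNA genes 4 rose and 5 fell: Irf9, the DNA-binding subunit of ISGF3, rose from 0.971 to 131 FPKM and Oas2 from 0.0443 to 5.30, while Oas1h fell from 645.5 to 126.

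Translation and energy lists differed from each other. Cytosolic ribosomal proteins gave 17 rises (20.5%) and 0 falls of 83 genes, beside 24.3% and 17.7% of all genes. The list's median was 0.36. If the overall median is not subtracted, the rises number 6, the falls 2 and the list's median is 0.07, and quantile normalization gave 12 rises and 1 fall. Rpl7l1, a relative of Rpl7, rose from 18.6 to 863 FPKM and Rpl9 from 32.8 to 278, and many ribosomal protein genes have processed copies that share reads. Mitochondrial ribosomal protein genes gave 14 rises (18.4%) and 4 falls (5.26%) of 76, with Mrpl43 rising from 16.8 to 478 FPKM. Of 82 oxidative phosphorylation genes 6 rose (7.32%) and 5 fell (6.10%), below the shares of all genes. Among 19 aminoacyl-tRNA synthetases 5 fell (26.3%), led by Iars (104 to 11.7 FPKM) and Qars (151 to 31.6). There 1 rose (5.26%), and the list's median was -0.60. Of 41 translation initiation and elongation genes 4 rose (9.76%) and 6 fell (14.6%), with a median of -0.32. In carbon metabolism 7 of 38 rose (18.4%) and 9 fell (23.7%). Ogdh, of the citrate cycle, rose from 19.7 to 1018 FPKM and Fh1 fell from 81.3 to 27.0.

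In the transport, lipid, trafficking and signalling lists between 11.4% and 28.0% of genes fell, beside 17.7% of all genes. Of 30 ion, volume and amino acid transport genes 8 fell (26.7%) and 4 rose: the amino acid transporter Slc6a15 fell from 21.1 to 1.55 FPKM and the aquaporin Aqp9 from 23.5 to 3.34, and the lactate transporter Slc16a1 rose from 8.71 to 34.6. Cholesterol and fatty acid synthesis gave 7 falls and 1 rise of 25, with Fdft1, squalene synthase, falling from 323 to 83.8 FPKM. In the endomembrane list 8 of 38 rose and 7 fell, with Rab7, of late endosomes, falling from 379.5 to 90.6 FPKM. For nuclear pore and import genes 6 of 44 rose and 5 fell, with Kpna1, an importin alpha, rising from 0.726 to 15.1 FPKM. In the RAS and MAPK list, beside Spry4, Mapk3 fell from 244 to 57.3 FPKM and Spry2 rose from 0.207 to 3.41, and 5 of 23 rose while 4 fell. Of the markers of other ovarian cells, Cyp19a1, aromatase, fell from 25.3 to 1.48 FPKM and Pecam1 from 20.7 to 2.13, while Inha rose from 1.72 to 10.9. Whether these levels come from the oocyte or from attached cells was not tested.

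**Figure D5:**
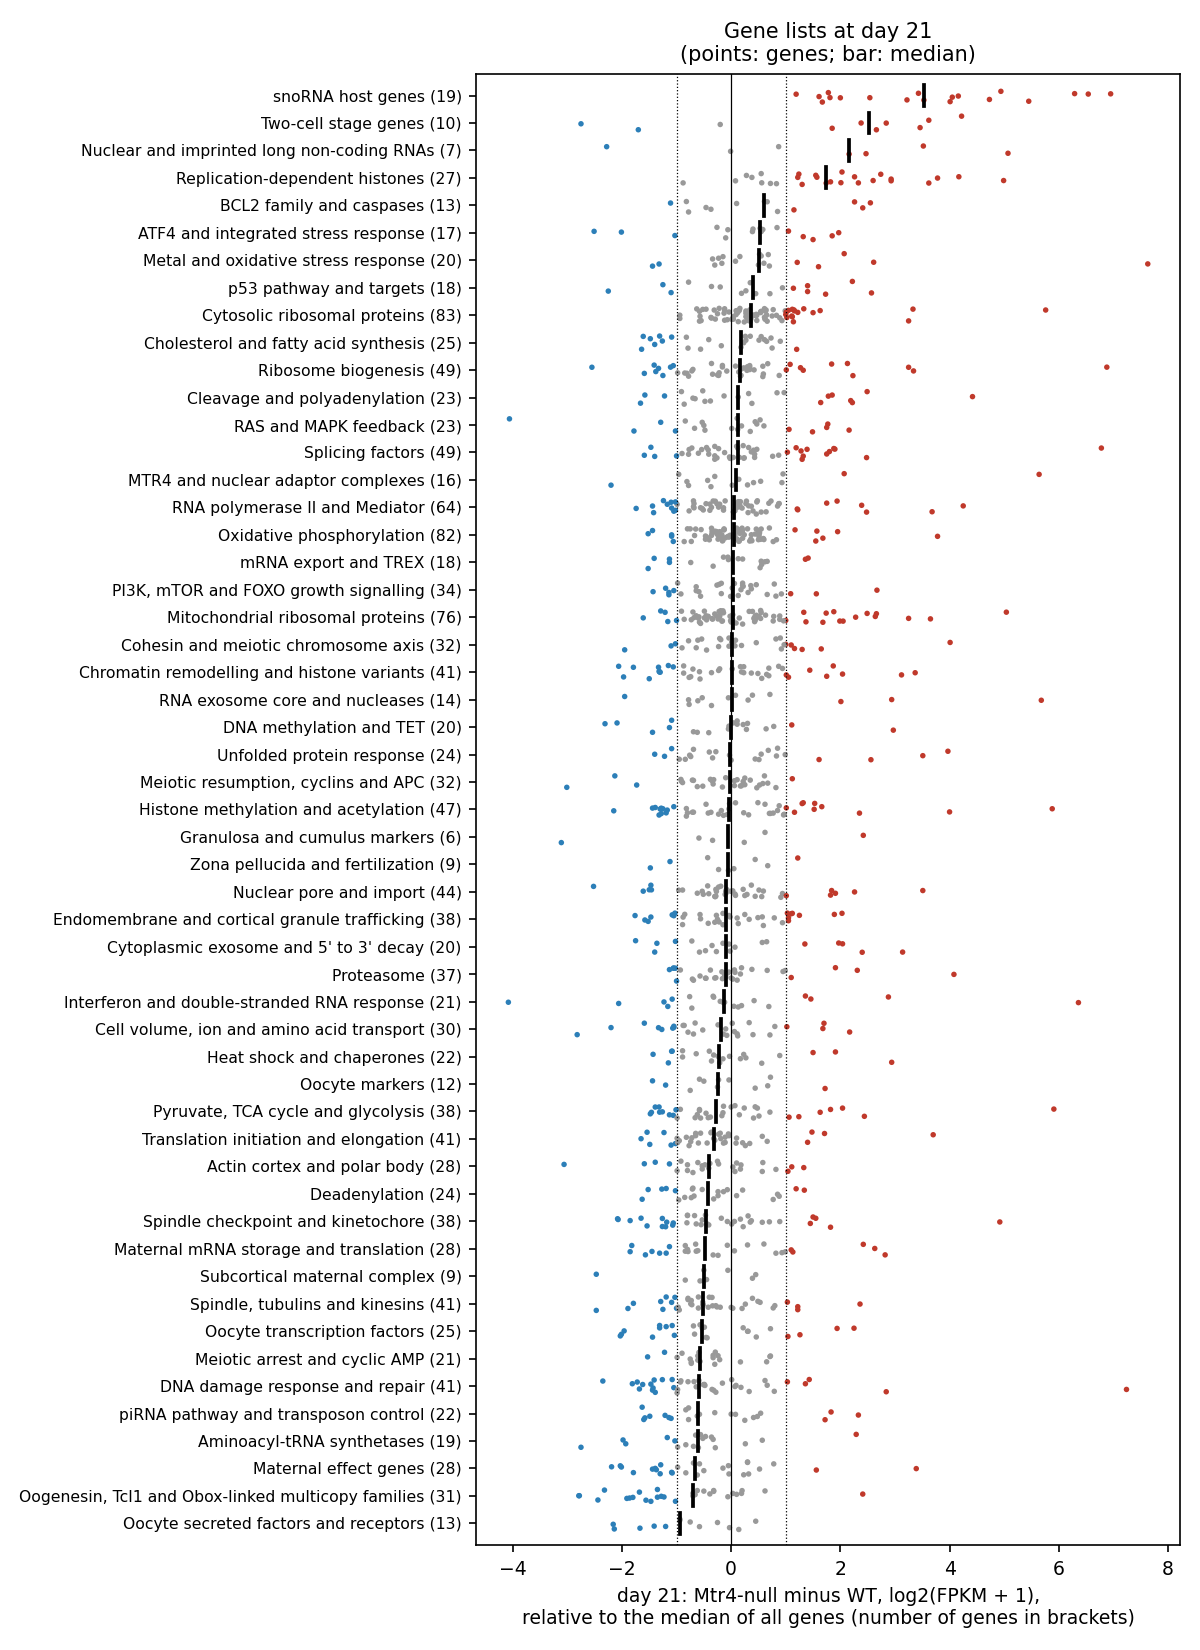
Each row is a gene list with at least 6 measured genes, ordered by its median day 21 difference (black bar), with the number of genes in brackets. Points are genes, red when at least 2-fold higher, blue when at least 2-fold lower and grey otherwise, on the log2(FPKM + 1) scale relative to the median of all genes. The snoRNA host genes are highest with a median of 3.53, and secreted factors and receptors lowest with -0.94.

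Some genes lay near the median at day 14 and moved at day 21. Among genes within 1.2-fold of the median at day 14, Eef2k, the kinase that slows translation elongation, stood at 39.4 FPKM at day 14 and 88.9 at day 21 in WT oocytes, and at 43.4 and 10.5 FPKM in Mtr4-null ones at these ages. Bms1 stood at 41.7 and 82.3 FPKM in the WT columns and at 43.5 and 10.65 in the Mtr4-null ones. Nup214, a nuclear pore protein gene, stood at 39.1 and 46.3 FPKM in the WT columns and 40.4 and 5.72 in the others. For the first pair the WT level was higher at day 21 than at day 14, and in all 3 the Mtr4-null day 21 value was the lowest of the 4. In the other direction Gm7325, now Mymx, whose product fuses muscle cells, stood at 5.17 and 5.24 FPKM in the WT columns and 6.49 and 70.4 in the others. Gas2l3, a linker of actin and microtubules, stood at 15.8 and 11.6 FPKM in the WT columns and 17.1 and 80.9 in the others. Clns1a, a chaperone of splicing particle assembly, stood at 30.2 and 32.2 FPKM in the WT columns and 35.4 and 174 in the others. In these genes the day 21 Mtr4-null column alone stood apart.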

How the data were processed

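Polyadenylated RNA of oocyte pools was measured by Smart-seq2 with ERCC spike-in RNA in the lysis buffer, per the labels' protocols. The submitters' processing notes name mm9 as the build and the tools Cufflinks 2.2.1 and TopHat2 2.1.1, without roles. The authors deposited FPKM values, 1 mean per group, for 23235 symbols, with 0 ERCC rows. In the Mtr4-null day 21 column 92.3% of the 2211 values from 10 to 100 with 5 decimals end in 5, and 0.12% of all values end in repeating 3s or 6s, against 55.4% to 57.4% in the others, so it may average 2 libraries where the labels list 3. The FPKM sums ran from 595721 to 649983.

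From these values the difference of log2(FPKM + 1) was taken for 11748 genes, with a pseudocount of 1 and a mean of at least 1 FPKM, and centred on its median (Python 3.11.15, pandas 2.3.3). A call means 2-fold, with no test. The members and the 54 lists were chosen with earlier results of these data known. Named are the targeted gene, the 30 largest rises and falls reaching 20 FPKM, the 12 most abundant genes per column, the 10 largest changes among genes near the median at day 14, opposite calls at the 2 ages, and up to 5 members per list and direction plus the 2 most abundant. All 66 genes with the B2 run in a 3′ UTR were open to naming, and Sap18 was added after its values were seen. Symbols were matched to RefSeq (11646, 1214 by synonym) and GENCODE vM21 (11579), both on GRCm38, so no coordinates are given. Sequence runs were found with edlib 1.3.9.post1. Alternatives were 8 settings of pseudocount, filter and scaling. FPKM are relative to each library's RNA, so a change in RNA per oocyte would not show.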

Additional observations from a re-analysis of the deposited data

Results flagged for a closer look

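A few genes were at least 2-fold lower than the median in Mtr4-null oocytes at day 14 and at least 2-fold higher at day 21. This difference between the ages was not tested. The relative day 21 difference was 3.07 for 2310040G24Rik, which stood at 0.660 FPKM in WT and 10.4 in Mtr4-null oocytes, and 2.41 for E330014E10Rik, at 7.05 and 33.9 FPKM. It was 2.11 for Prr15l, at 4.15 and 17.2 FPKM, and 1.2 for Id2, an inhibitor of helix-loop-helix factors, at 3.97 and 8.33 FPKM. Rps27, a ribosomal protein gene, stood at 436.5 FPKM in WT and 203 in Mtr4-null oocytes at day 14, and at 474 and 902 at day 21, a difference of 1.22.

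The short RNA loci left out of the comparison (microRNA, small nucleolar, small Cajal body and small nuclear RNA symbols) were also measured. Their FPKM summed to 86289 (13.3% of the total) in Mtr4-null oocytes at day 21, against 11915 (1.97%) in WT ones. At day 14 the sums were 30523 and 12552 FPKM.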

How the results depend on the processing

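No paired analysis was possible because the table holds group means, so the replicate block and the fits without single replicates were not run. Requiring a mean of 5 FPKM gave 1837 higher and 1303 lower genes, from 8034 genes, and a median of 4.17 for snoRNA host genes, which was 4.31 with a pseudocount of 0.1. With at least 1 FPKM in both WT columns that median was 2.15 and the long non-coding one 0.72. With no filter the long non-coding median was 0.25 and that of histone genes 0.92. The two-cell list reversed to -0.07 with a mean of 5 FPKM, and the theca, stromal, endothelial and blood list to 0.01 with no filter; the cause was not tested. Of 4137 values for the named genes under the 8 settings 4064 moved by less than 1.5-fold, 73 moved by more and 0 reversed. For a given gene the settings of filter, short RNA loci and median subtraction change only the median subtracted. That shift was under 1.5-fold, so those settings could not mark a gene as moved. Of the 73, 72 came with a pseudocount of 0.1 and 1 with quantile normalization. Of 432 list medians 419 stayed within 1.5-fold. Settings with other scaling gave 2868 higher and 2091 lower genes (median of ratios) and 2797 and 2080 (quantiles). Without replicate values no difference could be set against a spread, and differences of genes near the 2-fold limit or under a few FPKM rest on an unknown number of reads.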
